A study of Mus musculus with 14 samples.

Results

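Carboxylesterases are serine hydrolases of the endoplasmic reticulum that cleave ester bonds in stored fat, cholesteryl esters and many drugs, and liver is one of their richest sources. The mouse genome carries subfamilies named Ces1, Ces2 and Ces3, whose genes arose by repeated duplication and lie side by side. In liver, several of these enzymes take part in mobilising stored triglyceride for the assembly of very low density lipoprotein (VLDL), and one of them, Ces1c, is secreted and accounts for much of the esterase activity of mouse plasma. The 10 genes described here were given as a list of names and found by symbol, without a threshold on their values: Ces1b, Ces1c, Ces1d, Ces1e, Ces1f and Ces1g, then Ces2a and Ces2c, then Ces3a and Ces3b. All 10 were found among the 17552 genes of the deposited expression table, and all 10 held more than the minimum of 100 counts set for comparisons across genes.

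Liver RNA came from male C57BL/6 mice deficient in Apoe, so that both groups lacked apolipoprotein E, a ligand for the uptake of lipoproteins. The control group received a Western diet and the erythrodiol group the same diet with erythrodiol, a triterpenic alcohol of the olive, at 10 mg/kg. By the labels the animals were 8 weeks of age and the diets lasted 8 weeks, while the study's text gives a longer feeding. Each group had 7 libraries of polyA RNA, each made from RNA pooled over a few animals, but for genes the table holds 1 expected count per gene and group, summed over the 7 libraries, so that the spread between libraries of any carboxylesterase cannot be known and no test between the groups was possible.

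Over all genes the control group held 122889032 counts and the erythrodiol group 124686047. Counts are compared as the log2 ratio of erythrodiol over control after division of each group by its total, and brackets give exact 95% intervals that cover counting error only, not differences between mice. Over the 13291 genes that held 100 counts or more, both groups summed, the median log2 ratio was 0.16, so that a gene at the total-scaled value of 0 lay below most other genes. The ratios of members and of their sums are therefore also given relative to that median, and a ratio printed alone is by totals. Among markers of other liver cells, 5 of 6 Kupffer cell genes were lower with erythrodiol by more than 1.2-fold, with a summed level of 864 CPM (counts scaled to a total of 1000000 per group) in the control and 558 CPM with erythrodiol, and 4 of 5 cholangiocyte genes were lower, with 116 and 79.1 CPM. Each sum rests mostly on 1 gene: Cd5l held 532 and 327 CPM of the Kupffer cell sum, and Spp1 102 and 67.1 CPM of the cholangiocyte sum. Of the 6 hepatocyte markers 2 were higher and 0 lower by totals, with a median log2 ratio of 0.17. Relative to the median of all genes 0 hepatocyte markers were higher and 0 lower, while 5 Kupffer cell and 4 cholangiocyte genes were lower. Of the 13291 genes, 33.7% were higher and 11.4% lower past 1.2-fold by totals. Relative to the median the shares were 10.9% and 20.2%. Whether a change in cell composition bears on the values of the carboxylesterases was not tested, and in whole liver fewer cells of a type and less RNA per cell cannot be told apart.

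All 10 genes lie on mouse chromosome 8 in 2 arrays. On GRCm38, as annotated by RefSeq, the first array spans chr8:93020214-93379777, runs on the minus strand and holds 8 genes of the table, among them the 6 Ces1 members. The second spans chr8:104734003-105150109, runs on the plus strand and holds 10 genes of the table, among them Ces2a at its left end and Ces3a and Ces3b near its right end. The sequences below are shown because they carry what the enzymes share and, for Ces3a and Ces3b, a likeness that makes reads hard to tell apart. Each is the stretch of 51 bases around the codon of the catalytic serine, read 5′ to 3′ on the coding strand of the GENCODE transcripts (GRCm38), with that codon in capitals. All 10 windows lie within coding sequence, in a single exon each.
Ces1b: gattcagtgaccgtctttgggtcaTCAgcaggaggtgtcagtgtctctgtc
Ces1c: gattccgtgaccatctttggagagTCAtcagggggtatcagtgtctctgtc
Ces1d: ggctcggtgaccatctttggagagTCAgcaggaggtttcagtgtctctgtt
Ces1e: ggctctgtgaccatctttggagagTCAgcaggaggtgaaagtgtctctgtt
Ces1f: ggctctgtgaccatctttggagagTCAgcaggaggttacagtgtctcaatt
Ces1g: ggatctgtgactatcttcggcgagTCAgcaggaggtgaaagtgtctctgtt
Ces2a: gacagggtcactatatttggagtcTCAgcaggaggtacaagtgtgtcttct
Ces2c: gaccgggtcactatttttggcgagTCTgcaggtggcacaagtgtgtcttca
Ces3a: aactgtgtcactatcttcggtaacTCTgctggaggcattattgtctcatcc
Ces3b: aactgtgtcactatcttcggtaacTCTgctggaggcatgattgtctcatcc

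The windows of Ces3a (chr8:105051568-105051618, plus strand) and Ces3b (chr8:105086658-105086708, plus strand) differed at 1 of 51 bases. Within Ces1 the windows differed at 4 to 13 bases, with the fewest between Ces1d and Ces1e, Ces1d and Ces1f, Ces1e and Ces1f, and Ces1e and Ces1g. Those of Ces2a and Ces2c differed at 9. Between subfamilies the count was 14 to 22. In 6 of the 10 genes the codon before the serine was GAG, while Ces1b had TCA, Ces2a had GTC and both Ces3 genes had AAC.

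Over the whole coding sequence the Ces3 pair was again the closest, while the order of the other pairs was not that of the windows. Ces3a and Ces3b were identical at 95.3% of aligned coding bases and shared an unbroken run of 194 bases, longer than a single read of 100 bases. Ces1b and Ces1c, neighbours in the first array, came next with 90.9% and a shared run of 118 bases. Ces2a and Ces2c had 82.6%, and Ces1d and Ces1g, the most alike of the other Ces1 pairs, 81.6%. The lowest identity within a subfamily was 72.1%, between Ces1b and Ces1f.

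**Figure D1:**
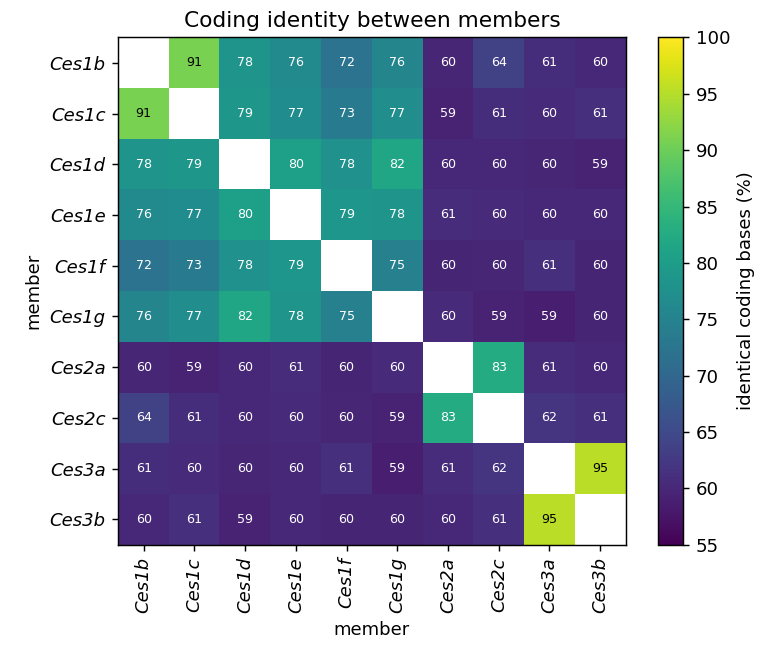
Percent of identical coding bases for each pair of the 10 carboxylesterases, by colour and by number, with members in rows and columns. The Ces3 pair stands at 95.3% and Ces1b with Ces1c at 90.9%, while pairs from different subfamilies stand near 60.

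These likenesses may bear on the counts, though how far they do was not tested. RSEM, the counter named in the processing notes, divides a read that fits several genes by estimated weight, so that fractions of a count appear. Ces1d, Ces1f, Ces1g and Ces2a had whole counts in both groups, and the 6 other members had a fractional count in at least 1 group. Over the 13291 genes with 100 counts or more, whatever their abundance, 79.5% had whole counts in both groups. When each annotated transcript was cut into every word of 100 bases, 0 words of Ces1d, Ces1e, Ces1f and Ces1g occurred in a transcript of another gene. Ces1b and Ces1c shared 24 words, which is 1.29% of those of Ces1b and 1.39% of those of Ces1c. In the control Ces1c held 296862 counts and Ces1b 10020. Reads of Ces1c from these words could therefore weigh more on Ces1b than 1.29% tells. Ces2a shared 10.7% of its words with the pseudogene Gm7208, and Ces2c shared 16.0% with Ces2d-ps, Gm8798 and Gm6831, none of which has a row in the table. Ces3a shared 9.09% of its words with Ces3b, and Ces3b 7.68% with Ces3a. As values of single genes, those of Ces1b, Ces2a, Ces2c, Ces3a and Ces3b are uncertain by shared words, and all of these but Ces2a also had fractional counts. Ces1d, Ces1f and Ces1g had 0 shared words and whole counts, while Ces1e had 0 shared words and a fractional count.

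The level of each gene in each group, in CPM per kilobase of transcript, is the scale on which genes can be set side by side. Ces1c, the secreted plasma enzyme, was first with 1306 in the control and 1416 with erythrodiol. Ces3a followed with 1016 and 1134. Both ranked among the most abundant transcripts of this liver, at places 52 and 65 of the 17552 genes. Ces1d, the enzyme also known as triacylglycerol hydrolase, stood at 295 and 305, and Ces1f, another lipid hydrolase of the endoplasmic reticulum, at 287 and 251. The level of Ces1d was 1.03 times that of Ces1f in the control and 1.21 times with erythrodiol. Ces3b stood at 123 and 147, Ces1g at 107 and 117, and Ces2a at 98.2 and 95.6. Ces1e, known as egasyn for holding beta-glucuronidase in the endoplasmic reticulum, stood at 73.1 and 68.1. Ces1b, at 42.3 and 48.8, and Ces2c, at 30.7 and 27.7, were last. The order of the 10 genes was the same in both groups. With 1 pooled value per group the spread of a level over libraries is unknown, so whether neighbours in this order differ beyond it was not tested.

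**Figure D2:**
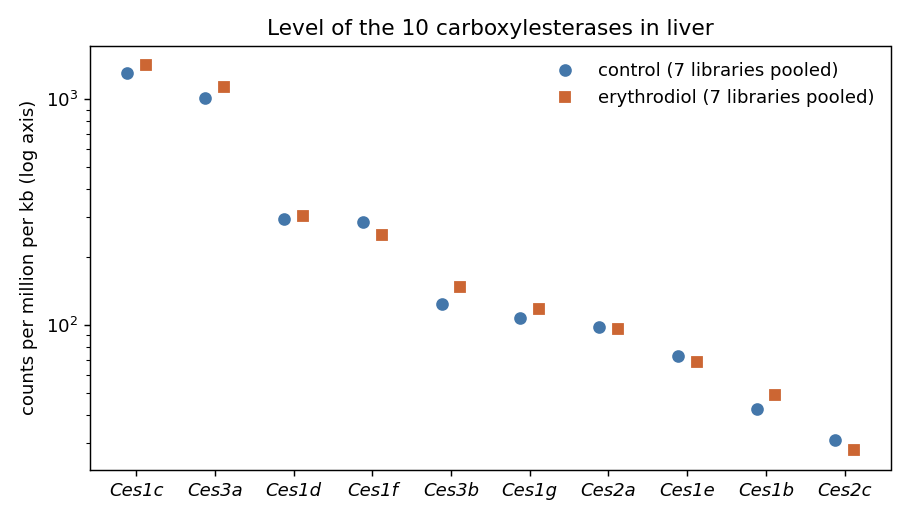
Level of each carboxylesterase in CPM per kilobase of transcript (log axis), with 1 circle for the 7 pooled control libraries and 1 square for the 7 pooled erythrodiol libraries. Levels run from 1416 for Ces1c to 27.7 for Ces2c, both with erythrodiol, and the order of the genes is the same in the groups.

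Together the 10 genes took 0.655% of all counts in the control and 0.700% with erythrodiol, or 804675 and 872237 counts. Their summed log2 ratio was 0.10 [0.09, 0.10], a fold of 1.07, and −0.07 relative to the median of all genes. The median over the 10 genes was 0.08 by totals, beside 0.16 over all genes and 0.18 over the 2349 genes with at least as many counts as Ces2c, the least abundant member. By totals 6 members were above 0 and 4 below, where 71.2% of all genes tested and 72.3% of those 2349 were above 0. None of the 10 differed by more than 1.2-fold in either direction by totals, a limit that 45.1% of the 13291 genes passed, 33.7% of the 13291 as higher and 11.4% as lower. Among the 2349 genes of like abundance it was 48.1%. Relative to the median, 3 members, Ces1f, Ces2c and Ces1e, were lower by more than 1.2-fold and 0 were higher, where 20.2% of genes were lower and 10.9% higher. Past 1.5-fold there were 0 members on either scale, beside 5.69% of genes by totals and 7.03% relative to the median.

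Ces1f had the lowest ratio of the 10. Its counts were 67820 for control and 60159 for erythrodiol, a log2 ratio of −0.19 [−0.21, −0.18] and −0.36 relative to the median. At percentile 14.7 of all genes tested, it lay well inside the spread of the table. Ces1f (chr8:93256236-93279766, minus strand) is a hydrolase of triglyceride and cholesteryl ester in hepatocytes.

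Ces2c held 7467 counts in the control and 6840 with erythrodiol, with a log2 ratio of −0.15 [−0.20, −0.10] and −0.31 relative to the median. It belongs to the subfamily that prefers small acyl groups in drugs and also cleaves acylglycerols. Ces2a (chr8:104734003-104741634, plus strand), of the same subfamily, had 23709 and 23404 counts and a log2 ratio of −0.04 [−0.07, −0.01], or −0.20 relative to the median. Their sum was 31176 in the control and 30244 with erythrodiol, −0.06 [−0.09, −0.04] by totals and −0.23 relative to the median. It was the lowest of the sums over the members of a subfamily, and it leaves out other Ces2 genes such as Ces2e.

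Ces1e (chr8:93201218-93229631, minus strand) held 18643 and 17620 counts, with a log2 ratio of −0.10 [−0.13, −0.07] and −0.26 relative to the median. Its partner Gusb, the gene of beta-glucuronidase, had 4412 and 4583 counts and a log2 ratio of 0.03. The ratio of Ces1e lay below that of Gusb, and neither passed 1.2-fold by totals.

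Ces1d (chr8:93166072-93197804, minus strand) held 71365 counts in the control and 74661 with erythrodiol. Its log2 ratio was 0.04 [0.03, 0.06], and −0.12 relative to the median. Ces1d hydrolyses the triglyceride of lipid droplets and feeds VLDL assembly, and by totals it and Ces2a were the members nearest to 0.

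Ces1g (chr8:93302369-93337209, minus strand), whose loss in mice is known to raise blood and liver lipids, held 30066 and 33491 counts. Its log2 ratio was 0.13 [0.11, 0.16], and −0.03 relative to the median. Ces1c (chr8:93099015-93131283, minus strand) held 296862 and 326665 counts, with a log2 ratio of 0.12 [0.11, 0.12] and −0.04 relative to the median. Both thus lay close to the middle of the table, at percentiles 46.0 and 43.7.

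Ces1b (chr8:93056725-93080017, minus strand), the neighbour of Ces1c and the most like it in sequence, held 10020 and 11708 counts. Its log2 ratio of 0.20 [0.17, 0.24] was the highest of the Ces1 members, and 0.04 relative to the median. As a value of a single gene it is uncertain, since reads shared with Ces1c may weigh on it. The 6 Ces1 members summed to 494776 counts in the control and 524304 with erythrodiol, 0.06 [0.06, 0.07] by totals and −0.10 relative to the median. Ces1c made up 60.0% of these counts. Without Ces1c the Ces1 ratio was −0.02, so that its sign by totals rests on that gene.

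Ces3b (chr8:105083733-105093929, plus strand) had the highest ratio of the 10. Its counts were 29302 for control and 35433 for erythrodiol, a log2 ratio of 0.25 [0.23, 0.28] and 0.09 relative to the median. Ces3a (chr8:105048576-105061928, plus strand), the far more abundant of the pair, held 249421 and 282256 counts, 0.16 [0.15, 0.17] by totals and −0.00 relative to the median. Their sum, which does not depend on how reads were divided between them, was 278723 and 317689 counts, 0.17 [0.16, 0.18] by totals and 0.01 relative to the median.

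**Figure D3:**
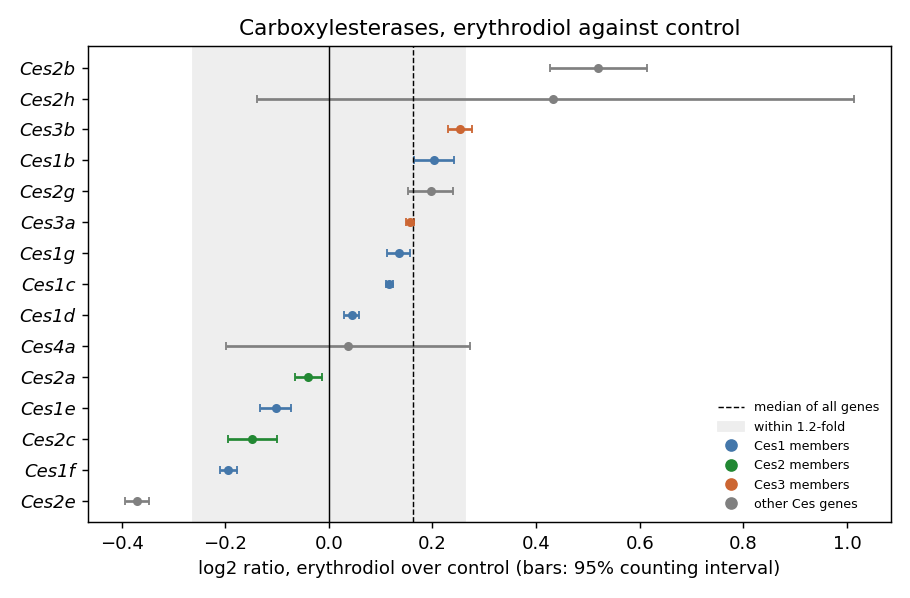
Log2 ratio of erythrodiol over control by column totals (horizontal axis) for the 10 members, coloured by subfamily, and 5 other carboxylesterase genes in grey, with bars for the 95% counting interval. The solid line is at 0, the dashed line at the median of all genes (0.16) and the shaded band spans 1.2-fold. All 10 members lie within the band, from −0.19 for Ces1f to 0.25 for Ces3b.

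Ratios between members need no scaling of the groups, since both genes are read from the same libraries. Per kilobase, Ces1f stood at 2.33 times the level of Ces3b in the control and at 1.71 times with erythrodiol, the widest shift among the 45 pairs, with a log2 change of −0.45. This pair is the widest by construction, since it joins the members of lowest and highest ratio. The value of Ces3b is also uncertain, as reads may be divided between it and Ces3a. Ces1b relative to Ces1f went from 0.148 to 0.194 (log2 change 0.40). Ces1c relative to Ces1f went from 4.55 to 5.65 (log2 change 0.31). Among the 5 pairs of adjacent Ces1 members, Ces1f relative to Ces1g went from 2.68 to 2.14 (log2 change −0.33), and the log2 changes of the 4 others lay between 0.07 and 0.15. As a share of the 10 genes per kilobase, Ces1f went from 8.49% to 6.95%, Ces3a from 30.1% to 31.4% and Ces1c from 38.6% to 39.2%.

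The sign of a subfamily's ratio depended on the scaling. The Ces2 sum was below 0 by totals and on 4 of the 5 other scalings, and stood at 0.07 when set against the reference genes Ppib and Tbp. The Ces1 sum was above 0 by totals and against Ppib and Tbp, and below 0 on the 4 others. The Ces3 sum was above 0 on all 6, from 0.01 to 0.30. On every one of the 6 scalings the order was Ces3, then Ces1, then Ces2, which follows from dividing all 3 sums by the same number, apart from the scaling by transcript length.

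**Figure D4:**
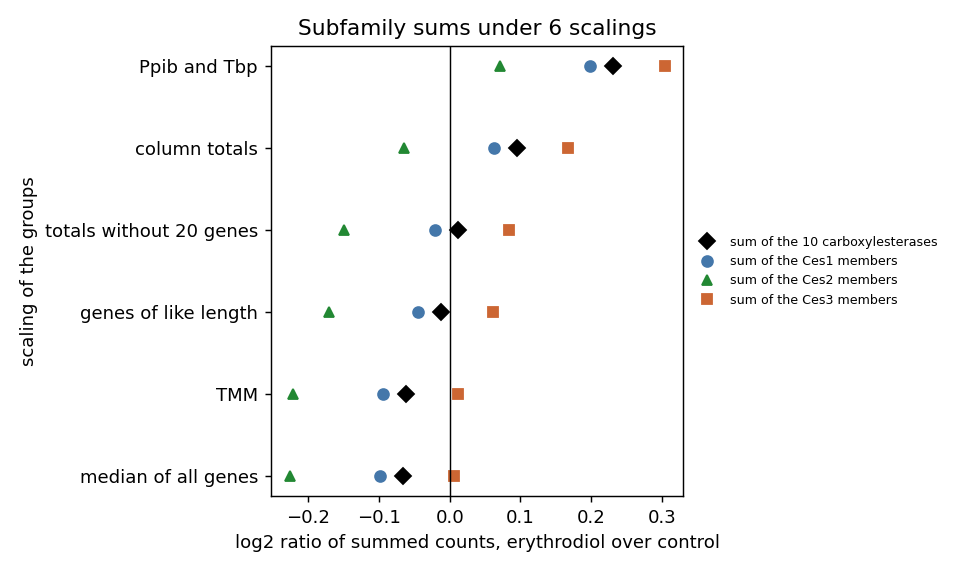
Log2 ratio of summed counts of the 10 genes and of the Ces1, Ces2 and Ces3 members (horizontal axis) under 6 scalings of the groups (vertical axis). The sum of the 10 genes runs from −0.07 relative to the median of all genes to 0.23 relative to Ppib and Tbp.

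The authors also deposited transcripts assembled over all libraries that they judged to be coding and not in the annotation, without a level or a group. Of the 10 members 3 had such transcripts, 1 for Ces1c, 1 for Ces3a and 5 for Ces3b, a share of 30% beside 28.5% of all genes in the table and 34.3% of the 2349 genes of like abundance. The transcript of Ces1c used 11 introns of the annotation and 1 other of 23476 bases, chr8:93130900-93154375, so that its first exon lay upstream of the annotated start. That of Ces3a used 11 annotated introns and no other. The transcripts of Ces3b were of a different kind: the first and second began at the first exon of Ces3a (chr8:105048583) and ended at the last of Ces3b (chr8:105093929). Each had 2421 exonic bases, and in the first 60.3% of them lay in exons of Ces3a and 38.9% in exons of Ces3b. In the second the shares were 54.2% and 45.1%.

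The joints of these models are printed because their bases do not set the models apart from Ces3a. Each line gives the last 30 bases of the exon of Ces3a in lower case and the first 30 bases of the exon of Ces3b in capitals, on the plus strand of GRCm38, all of them coding in the annotation. The first joins chr8:105057461-105057610 to chr8:105092895-105092973 across an intron of 35284 bases, and the second joins chr8:105056384-105056531 to chr8:105092605-105092754 across 36073 bases.
Ces3b model 1: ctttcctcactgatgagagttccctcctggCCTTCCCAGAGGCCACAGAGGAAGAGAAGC
Ces3b model 2: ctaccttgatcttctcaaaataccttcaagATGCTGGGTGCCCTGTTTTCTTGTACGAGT

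All 60 bases of either joint also occur, with 0 mismatches, in an annotated transcript of Ces3a, and with 1 and 2 mismatches in one of Ces3b. Of the 99 words of 100 bases that cross the joint of the first model, 82 are found in Ces3a, 4 in Ces3b and 13 in neither. For the second model, 89 are found in Ces3a, 4 in Ces3b and 6 in neither. Most single reads of that length across a joint would thus also fit Ces3a alone. The libraries were paired-end, and what the mate of a read adds was not tested.

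By the study's methods, assembled coding transcripts were added to the annotated ones before reads were counted, so that a read from an exon of Ces3a could also be placed on a transcript filed under Ces3b. Of the 1947 words of 100 bases in Ces3a, 177 (9.09%) occurred in the annotated transcripts of Ces3b, and 1478 (75.9%) once the assembled ones were added. The values of Ces3a and Ces3b are for this reason best read as their sum. Whether RNA that joins the genes is present in these livers was not tested.

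**Figure D5:**
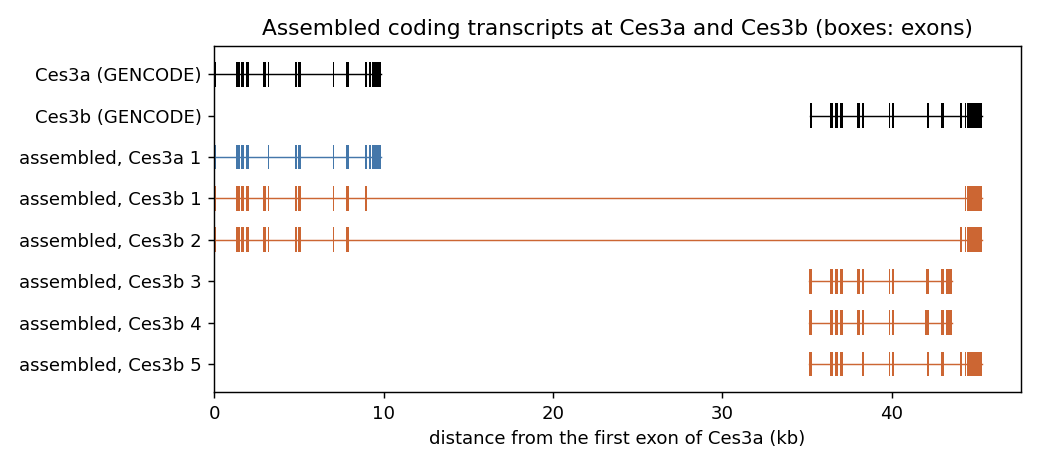
Exons (boxes) and introns (lines) of Ces3a and Ces3b in the GENCODE annotation (black) and of the assembled coding transcripts filed under Ces3a (blue) and Ces3b (orange), by distance in kilobases from the first exon of Ces3a. The first and second Ces3b transcripts run from the exons of Ces3a into those of Ces3b, and the 3 others stay at Ces3b.

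The sequence before the start of a gene was found in RefSeq (GRCm38.p6) for 7 of the 10 members. Ces1b and Ces1c are shown since they were the closest pair there, before Ces2a and Ces2c with 67.5% of aligned bases identical. Each line holds the 250 bases before an annotated start, chr8:93080018-93080267 for Ces1b and chr8:93131284-93131533 for Ces1c, both on the minus strand, with the longest run that both share, 58 bases, in capitals.
Ces1b: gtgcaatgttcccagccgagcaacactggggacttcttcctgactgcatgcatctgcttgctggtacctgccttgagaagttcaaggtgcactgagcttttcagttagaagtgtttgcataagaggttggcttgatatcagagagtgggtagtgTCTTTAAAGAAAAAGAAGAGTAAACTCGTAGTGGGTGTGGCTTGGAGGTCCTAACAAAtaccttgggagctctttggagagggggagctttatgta
Ces1c: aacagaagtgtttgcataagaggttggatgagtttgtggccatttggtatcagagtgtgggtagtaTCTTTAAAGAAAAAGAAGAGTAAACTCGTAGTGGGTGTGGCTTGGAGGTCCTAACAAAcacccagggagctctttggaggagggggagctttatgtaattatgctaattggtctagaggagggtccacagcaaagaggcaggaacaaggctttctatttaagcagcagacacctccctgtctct

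Over 147 aligned bases these promoters were identical at 95.2%. Before another annotated start of Ces1b the identity with Ces1c was 93.3% over 223 aligned bases. Levels per kilobase in the control were 42.3 for Ces1b and 1306 for Ces1c, and log2 ratios 0.20 and 0.12. The counts do not tell the starts of Ces1b apart. In the 250 bases before the start, the word CCAAT was found on either strand in 6 of the 8 member promoters (Ces1b has a pair of annotated starts) and in 33.8% of 32851 promoters. TATAAA was found at Ces1g and Ces3b and in 12.4% of promoters, and AGGTCA, the core word of many nuclear receptor sites, at Ces2a and in 14.0%. These are matches of letters and say nothing of binding.

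Of the 8 other carboxylesterase genes of the table, Ces2e stood apart from the members. Its counts were 34930 for control and 27407 for erythrodiol, a log2 ratio of −0.37 [−0.39, −0.35], and −0.53 relative to the median. At 138 and 107 CPM per kilobase it was more abundant than the member Ces2a. Ces2b went the other way, with 1567 and 2280 counts and a log2 ratio of 0.52 [0.43, 0.61]. Its coding sequence was identical to that of Ces2c at 92.1% of bases, with a longest shared run of 99 bases. Of the 3309 words of 100 bases in Ces2b, 3 occurred in another gene, Gm6831. Ces2g had 7976 and 9273 counts (0.20), Ces4a had 294 and 306 (0.04), and Ces2h had 46 and 63 (0.43) with an interval from −0.14 to 1.01. Ces1a, Ces2f and Ces1h had fewer than 100 counts, with 36 and 33, 20 and 35, and 5 and 6. Among the Ces2 genes with at least 100 counts the ratios ran from −0.37 to 0.52, and among the 10 members from −0.19 to 0.25. Outside the arrays, the nearest genes with at least 100 counts were Lpcat2 (−0.41) and Gnao1 (−0.20) beside the first. Gnao1 had 68 and 60 counts and an interval from −0.73 to 0.32. Beside the second they were Fam96b (0.16) and Cbfb (0.01).

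Enzymes that share substrates with the carboxylesterases, their regulators and their partners were counted past 1.2-fold by totals, where 33.7% of all genes tested were higher and 11.4% lower, and relative to the median, where 10.9% were higher and 20.2% lower. Among 15 neutral lipid hydrolases and cofactors that held 100 counts or more, 5 were higher by more than 1.2-fold, 2 were lower and the median log2 ratio was 0.13. Relative to the median of all genes 1 was higher and 3 lower. The lower ones by totals were Aadac (−0.48), an esterase of the endoplasmic reticulum, and G0s2 (−0.56), the inhibitor of adipose triglyceride lipase. The higher ones were Lipg (0.87), Mgll (0.40), Ddhd2 (0.36), Lipe (0.34) and Pnpla2 (0.33), the gene of that lipase itself. Of 13 other esterases and drug hydrolases, Ephx1 (0.45), Pon2 (0.41) and Lypla2 (0.36) were higher, and Pon1 (−0.41), the paraoxonase of high density lipoprotein, Esd (−0.27) and Aadac were lower, with a median of 0.10. Of these 13, 1 was higher and 4 were lower relative to the median of all genes.

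Of 11 VLDL assembly and lipid droplet genes, 4 were higher and 3 lower past 1.2-fold, a share of higher genes near the 33.7% of all genes, with a median of 0.22. The higher ones were Apob (0.35) and Mttp (0.35), which build the VLDL particle, Soat2 (0.41) and Tm6sf2 (0.34). The lower ones were the droplet proteins Plin2 (−0.32), Plin5 (−0.37) and Cidec (−0.37). Relative to the median 0 were higher and the same 3 were lower. Ces1d and Ces1g, the members best known for VLDL, were within 1.2-fold.

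Among 13 transcription factors known to act on carboxylesterase genes, 8 were higher past 1.2-fold and 0 lower, beside 33.7% and 11.4% of all genes, with a median of 0.30. They were Ppara (0.51), Nr0b2 (0.41), Nr5a2 (0.38), Rxra (0.35), Foxa2 (0.33), Ahr (0.32), Nr1i3 (0.30) and Nfe2l2 (0.29). Against the median of all genes, 1, Ppara, was higher and 1, Cebpa (−0.28), was lower. Of 14 target genes of the nuclear receptors CAR and PXR, Cyp2b10 (43.2 and 134 counts, 1.61), Alas1 (0.69), Por (0.62), Abcc2 (0.47), Ugt1a1 (0.39) and Gstm1 (0.32) were higher and Cyp2c37 (−0.29) was lower. Relative to the median 4 were higher and 4 lower. Of 8 partners in the endoplasmic reticulum Calr (0.38) was higher past 1.2-fold and 0 were lower, with a median of 0.20.

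How far reads could be told apart differed between libraries. Clean reads numbered 34856340 to 55244294 in the control libraries, with a median of 48008204, and 47669656 to 48058606 in the erythrodiol libraries. The share of mapped reads that were not uniquely mapped was 20.5 ± 9.51% (SD, n = 7) in the control, from 10.9% to 36.9% with a median of 18.1%, and 15.7 ± 2.77% (SD, n = 7) with erythrodiol, from 12.8% to 20.7%. In the control, 2 libraries lay above and 2 below all erythrodiol libraries. The group means differed by −4.81 percentage points (two-sided exact permutation test, p = 0.261), a difference smaller than the spread between control libraries. Without control replicate 1, which had the highest share, it was −2.06 points. The part of this difference in the values of the near-identical carboxylesterases was not tested.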

How the data were processed

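Livers of 14 pools, 7 per group, were profiled by paired-end sequencing of polyA RNA on the BGISEQ-500 platform. Each library's group is that of its label. The authors filtered the reads, aligned them with HISAT, built transcripts by StringTie, compared them with the annotation with Cufflinks, added those predicted to be coding to the reference transcripts, and counted on these with Bowtie2 and RSEM. GATK, also in the processing notes, bears on no value here. Versions, the genome build and the annotation are not given in the sources used here, and the coordinates of assembled transcripts matched GRCm38.

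The authors deposited 1 expected count (RSEM) for each gene and group, not normalized and summed over the 7 libraries. For libraries, the authors deposited counts of clean reads and mapping rates in percent. The deposited log2 ratios, p-values and q-values per gene and the tables of splicing events are the authors' own comparisons and were not used, nor were 2 columns of values that name no sample.

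Ratios of the groups were scaled by column totals, with exact conditional binomial (Clopper-Pearson) intervals at 95%. On simulated data with known changes the computation was tested before use. The planned edgeR test needs gene counts per library, so no gene was tested, and edgeR 4.0.16 gave TMM factors alone. Genes compared across the table had at least 100 counts in the groups together, and a whole count was within 0.005 of an integer. The catalytic serine codon was the only one between codons 180 and 240 in the pattern glycine, any, serine, any, glycine. Coding sequences are those of the longest coding transcript in GENCODE vM21, and 1 library summary was compared by an exact permutation test of the means. Named genes are all 10 members and, of each list, those past 1.2-fold with at least 100 counts and up to 4 others of most counts. Beside them stand the nearest genes with at least 100 counts outside each array. Members and lists were chosen with earlier results of these data known. From the list of transcription factors, 1 gene is not reported here. Software was Biopython 1.88 and scipy 1.17.1 under Python 3.11.15, with pandas 2.3.3, numpy 2.4.6 and matplotlib 3.10.9.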

Additional observations from a re-analysis of the deposited data

Results flagged for a closer look

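The share of clean reads mapped to genes in control replicate 3 was 64.3%, the lowest of the 7 control libraries and apart from the others, which lay between 74.4% and 81.4%. Its gap to the next library was 0.588 of the group's range, above Dixon's critical value for 7 libraries, a limit that chance passes in about 1 group in 20. The same library had the fewest clean reads, 34856340. Since the counts of the carboxylesterases are sums over the 7 libraries, they could not be recomputed without it.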

How the results depend on the processing

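Against the values by column totals, the log2 ratio of the sum of the 10 genes was −0.067 relative to the median of all genes, −0.012 relative to genes of like length, 0.23 relative to Ppib and Tbp, 0.011 by totals without the 20 genes of most counts and −0.061 with TMM factors. In the same order the Ces1 sum was −0.099, −0.045, 0.20, −0.021 and −0.094, the Ces2 sum −0.23, −0.17, 0.072, −0.15 and −0.22, the Ces3 sum 0.0059, 0.062, 0.30, 0.084 and 0.011, and the number of members past 1.2-fold 3, 1, 4, 1 and 2. The 4 members past 1.2-fold against Ppib and Tbp were higher with erythrodiol, and those on the other scalings were lower. Without the member of most counts, the sums were 0.083 for the remaining members, −0.023 for Ces1, −0.15 for Ces2 and 0.25 for Ces3. A pseudocount of 1 and rounding to whole counts left the sums within counting error of the values by totals and the number past 1.2-fold at 0, and past 1.5-fold it was also 0.

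Gene counts were pooled by group, so neither leaving out a library nor pairing could be applied to a carboxylesterase. For the share of reads not uniquely mapped, these alternatives were chosen after seeing the data. Leaving out each library in turn gave differences between −6.41 and −2.06 percentage points. With the replicate number as a block the difference was −4.81 points (exact permutation within pairs, two-sided, p = 0.297), and the labels do not say that the numbers pair the pools. Depth limits no member, since the least abundant held 6840 counts or more per group. The unknown spread between pools does.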

Other observations

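Markers of liver cells and of other tissues were counted past 1.2-fold by totals, where 33.7% of all genes tested were higher and 11.4% lower, and their part in the values of the carboxylesterases was not tested. Of 7 pericentral hepatocyte markers, 4 were higher and 2, Rgn (−0.57) and Oat (−0.34), were lower with erythrodiol by more than 1.2-fold, and of 6 periportal markers 3 were higher, Pck1 (0.65), Ass1 (0.45) and Cyp2f2 (0.43), and 0 lower. Relative to the median of all genes, 1 pericentral marker was higher and 2 lower, and 3 periportal markers were higher and 0 lower. The Kupffer cell markers that were lower were Adgre1 (−0.75), Cd5l (−0.70), Clec4f (−0.65), Vsig4 (−0.59) and Timd4 (−0.48), while Cd68 stood at 0.04. Of the cholangiocyte markers Krt19 (−0.89), Spp1 (−0.60), Epcam (−0.55) and Krt7 (−0.29) were lower, and Sox9 stood at −0.09. Of 5 sinusoidal endothelium markers 1 was higher and 0 lower by totals, and 0 were higher and 1 lower relative to the median. By totals 0 of 5 stellate cell and 0 of 5 lymphocyte markers passed 1.2-fold, and relative to the median 2 and 1 of them were lower. Of 5 neutrophil markers, the 2 with at least 100 counts, S100a8 and S100a9, were lower (median −1.15). Below 100 counts, Ly6g had 39 and 45 counts (0.20), Elane 24 and 14 (−0.80) and Mpo 13 and 3 (−2.14). Both groups held few counts of the 5 genes, with a summed level of 9.68 CPM in the control and 4.61 CPM with erythrodiol. Of the markers of other tissues with at least 100 counts, Fabp4 of adipocytes stood at −0.77 and Cela1 of the pancreas at −0.52. Fabp2 and Lgals4 of the intestine stood at −0.73 and 0.40. Below 100 counts, the pancreatic markers Ctrb1 (8 and 42 counts, 2.37) and Cpa1 (2 and 15, 2.89) went the other way from Cela1. Pnlip, also of the pancreas, had 11 and 10 counts (−0.16). Cdh17 of the intestine had 6 counts for control and 0 for erythrodiol, and it was the only marker at 0 in a group.

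The 5 assembled transcripts of Ces3b had 11 to 13 exons, and the 3 that stayed within the gene each used at least 1 intron that is not in the annotation, of 110 to 1894 bases.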
